A study of Mus musculus with 12 samples.

Results

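The 10 genes described here are 6 transcription factors of the trophoblast lineage (Elf5, Gata2, Gata3, Hand1, Tfap2a and Tfap2c) and 4 keratins of simple epithelia (Krt7, Krt8, Krt18 and Krt19). They were chosen by name, as a group, from the 39017 genes of the deposited gene table, and all 10 passed the filter on low counts that left 17885 genes for testing. Their levels were followed in poly(A) RNA of mouse embryonic stem cells (mESCs) from 2 male lines, each in 2 media, as 3 biological replicates for each of 4 groups. J1 cells are wild type. 3B3-3l cells are knocked out for the endogenous Dnmt3a and Dnmt3b genes and carry CAG-driven transgenes of Dnmt3b and of its cofactor Dnmt3l, a constitutive source of de novo DNA methyltransferase. Serum medium held fetal calf serum and LIF (500 U/ml in the labels). 2i medium was serum-free, with 1 uM of the MEK inhibitor PD0325901, 3 uM of the Gsk3 inhibitor CHIR99021 and LIF (1000 U/ml). The study's methods give another LIF dose for serum than the labels do. Serum cultures of J1 were kept on feeders, removed before RNA was taken, and those of 3B3-3l on gelatin, so line and culture surface cannot be told apart in that medium. Each genotype is 1 line, so genotype and line cannot be told apart either.

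Trophoblast is the first lineage to leave the embryo proper and builds the fetal part of the placenta. Tfap2c, Gata3 and Elf5 belong to the network that sets up and maintains trophoblast stem cells, Gata2 and Hand1 act later, in trophoblast giant cells, and Tfap2a is a close relative of Tfap2c. In mESCs the Elf5 promoter is a textbook case of a lineage gate closed by DNA methylation. Several of these factors also work elsewhere: Tfap2c in mESCs and germ cells, Hand1 in extraembryonic and heart mesoderm, Tfap2a in neural crest and surface ectoderm. Keratin filaments are obligate pairs of a type II chain (here Krt7 or Krt8) and a type I chain (here Krt18 or Krt19). Krt8 and Krt18 are the pair made first in the embryo, in trophectoderm, and a keratin chain without a partner is usually degraded. Since bulk RNA was measured, fewer cells that express a gene and less RNA per cell cannot be told apart.

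The stretches before transcription starts of 2 keratins and 1 factor are printed 5′ to 3′ from RefSeq (GRCm38.p6, mm10) with each CpG, the dinucleotide that DNA methyltransferases modify, in capitals. The Krt8 stretch (chr15:102004343-102004592, minus strand) and the Krt18 stretch (chr15:102027966-102028215, plus strand) are shown because these neighbours, whose starts lie 23.9 kb apart and point away from each other, moved in opposite directions in 2i. The other pair are the upstream Gata2 start (chr6:88193641-88193890, plus strand) and the downstream one (chr6:88198414-88198663, plus strand), 4773 bases apart, of which nearly all Gata2 reads were assigned to the downstream one. Each stretch is the 250 bases before the start and ends where the first exon begins.
Krt8: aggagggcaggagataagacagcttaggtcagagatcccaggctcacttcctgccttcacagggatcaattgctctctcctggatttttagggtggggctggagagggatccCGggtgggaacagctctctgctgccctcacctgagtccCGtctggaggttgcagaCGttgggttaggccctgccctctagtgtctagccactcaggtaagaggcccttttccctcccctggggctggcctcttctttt
Krt18: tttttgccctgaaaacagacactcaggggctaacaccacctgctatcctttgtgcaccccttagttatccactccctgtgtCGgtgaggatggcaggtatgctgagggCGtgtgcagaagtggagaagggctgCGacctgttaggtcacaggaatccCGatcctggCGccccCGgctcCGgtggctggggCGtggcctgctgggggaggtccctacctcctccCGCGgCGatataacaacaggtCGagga
Gata2 upstream start: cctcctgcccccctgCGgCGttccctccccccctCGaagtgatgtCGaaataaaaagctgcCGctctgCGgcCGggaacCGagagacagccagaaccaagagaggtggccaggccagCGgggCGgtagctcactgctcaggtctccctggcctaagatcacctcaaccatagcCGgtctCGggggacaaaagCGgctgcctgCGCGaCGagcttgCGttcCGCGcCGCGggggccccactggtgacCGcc
Gata2 downstream start: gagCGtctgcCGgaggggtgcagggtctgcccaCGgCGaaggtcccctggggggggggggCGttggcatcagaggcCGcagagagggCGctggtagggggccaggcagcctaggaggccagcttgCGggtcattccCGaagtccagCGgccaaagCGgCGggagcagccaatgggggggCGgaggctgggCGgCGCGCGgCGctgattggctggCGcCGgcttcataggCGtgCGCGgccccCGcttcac

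The Krt8 stretch held 3 CpGs and the Krt18 stretch 12, against a median of 6 over 32841 RefSeq promoter windows of the same length. Both Gata2 stretches were richer, with 22 upstream and 24 downstream, and 86.7% and 89.3% of all windows had no more CpGs than these. Windows were found for 7 of the 10 genes, 2 each for Elf5, Gata2 and Tfap2a and 1 each for Gata3, Krt7, Krt8 and Krt18, so 10 windows in all. The Elf5 windows held 2 and 8 CpGs, the Gata3 window 19, the Krt7 window 16 and both Tfap2a windows 10. The AP-2 motif GCCNNNGGC, the binding sequence of the Tfap2 family (read on both strands), was found in the windows of Gata3, Krt7 and Krt18 and in the downstream Gata2 window, and 13.7% of all windows hold it. The GATA motif AGATAA occurred in the Krt8 window, as in 9.99% of all windows, and the GC box GGGCGG in the windows of Gata2, Gata3, Tfap2a and Krt7, as in 32.7%. Neither TATAAA (12.4% of all windows) nor the AP-1 motif TGANTCA (6.75%) was found in any of the 10. These letter matches are descriptions and say nothing about binding.

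The libraries held 37050652 to 44515395 estimated reads, and 3 reads in a library, the least taken as detected, correspond to 0.0684 to 0.0813 CPM (counts per 1000000 TMM-scaled reads). Dnmt genes were read as a check of the lines. Dnmt3b averaged 928 ± 12.7 CPM in 3B3-3l 2i and 44.1 ± 3.12 CPM in J1 2i (SD, n = 3). Dnmt3a, whose endogenous gene is disrupted in 3B3-3l, averaged 166 ± 0.785 CPM in J1 serum, 41.5 ± 2.78 in J1 2i, 32.1 ± 2.50 in 3B3-3l serum and 4.67 ± 0.585 in 3B3-3l 2i. It was thus lower in 3B3-3l within each medium but not at 0, and whether those reads cover the disrupted part was not tested. The 10 pluripotency markers summed to 4919 to 5451 CPM in 3B3-3l serum, the lowest group, and to 7624 to 7856 CPM in 3B3-3l 2i, the highest. Of the 12 fibroblast markers, which would show feeder RNA, the sum was 78.1 to 84.7 CPM in J1 serum and 109 to 129 CPM in 3B3-3l serum, which had no feeders, against 42.5 to 43.5 and 29.9 to 31.2 CPM in 2i. Lum and Fap were at or below 3 reads in every library, Dcn and Postn never exceeded 0.261 and 0.180 CPM, and Col1a1 and Col5a1 were the highest of the list in J1 serum, at 28.1 ± 0.209 and 25.8 ± 1.65 CPM. Their part in the values below was not tested.

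Per kb of transcript, the scale on which genes can be compared, Krt8, Krt18, Krt19 and Tfap2c were the abundant members and the other 6 averaged under 5 CPM per kb in every group. In J1 serum the mean levels were 36.9 ± 2.07 for Krt8, 34.8 ± 5.35 for Krt19, 32.2 ± 2.43 for Krt18 and 24.3 ± 0.568 for Tfap2c (CPM per kb of effective length, SD, n = 3). In 2i the type I members Krt18 and Krt19 left this group. Krt8 then stood at 69.3 ± 7.22 in J1 and 78.95 ± 2.46 in 3B3-3l, Krt18 at 9.01 ± 1.29 and 9.75 ± 0.539, and Krt19 at 6.98 ± 1.20 and 2.34 ± 0.535. Among the rarer members, Tfap2a stood at 0.331 ± 0.127 in J1 serum against 3.01 ± 0.270 in J1 2i, and at 0.369 ± 0.145 in 3B3-3l serum against 4.48 ± 0.330 in 3B3-3l 2i. Gata3 averaged 0.957 ± 0.453 and 1.22 ± 0.381 in J1 serum and 2i, and 1.31 ± 0.461 and 1.87 ± 0.731 in 3B3-3l serum and 2i, with overlapping libraries in both lines.

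**Figure D1:**
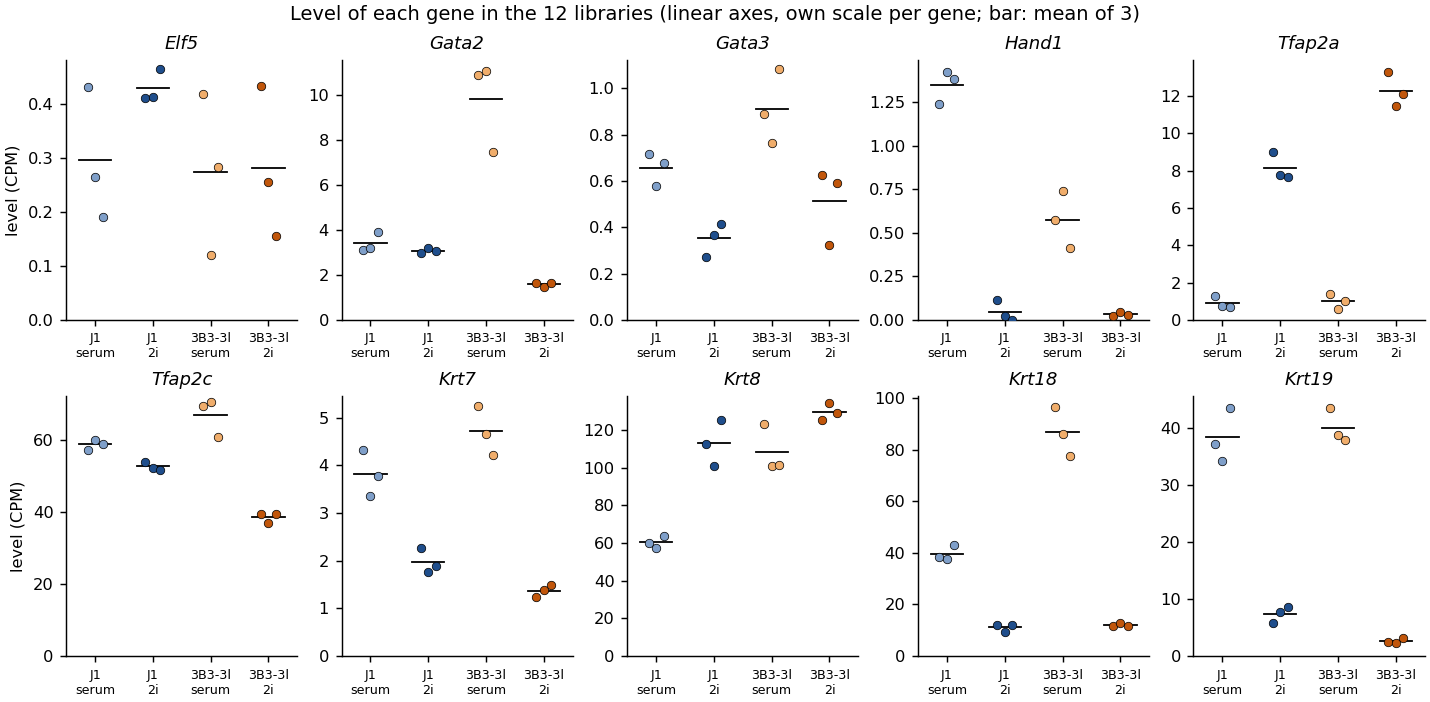
Level of each of the 10 genes in the 12 libraries, in CPM on linear axes that start at 0 and have their own scale per gene; points are libraries and bars are means of 3. Tfap2a and Krt8 are higher in 2i than in serum of the same line, Hand1, Krt18 and Krt19 are lower, and the libraries of Elf5 overlap in all groups.

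What the change to 2i does to these genes was asked in each line. In J1, 8 of the 10 genes were called at an adjusted p under 0.05 in edgeR's quasi-likelihood test, 2 higher and 6 lower, where 66.1% of all tested genes were called (33.2% higher and 32.9% lower). In 3B3-3l, 9 were called, 2 higher and 7 lower, against a background of 65.4% (32.7% and 32.7%). The CPM of the serum and 2i libraries did not overlap for 8 members in J1 and 9 in 3B3-3l, which happened in 68.7% and 69.6% of all tested genes. The median log2 fold change over the 10 members was -0.53 in J1 and -1.30 in 3B3-3l, and over all tested genes 0.01 and 0.01.

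**Figure D2:**
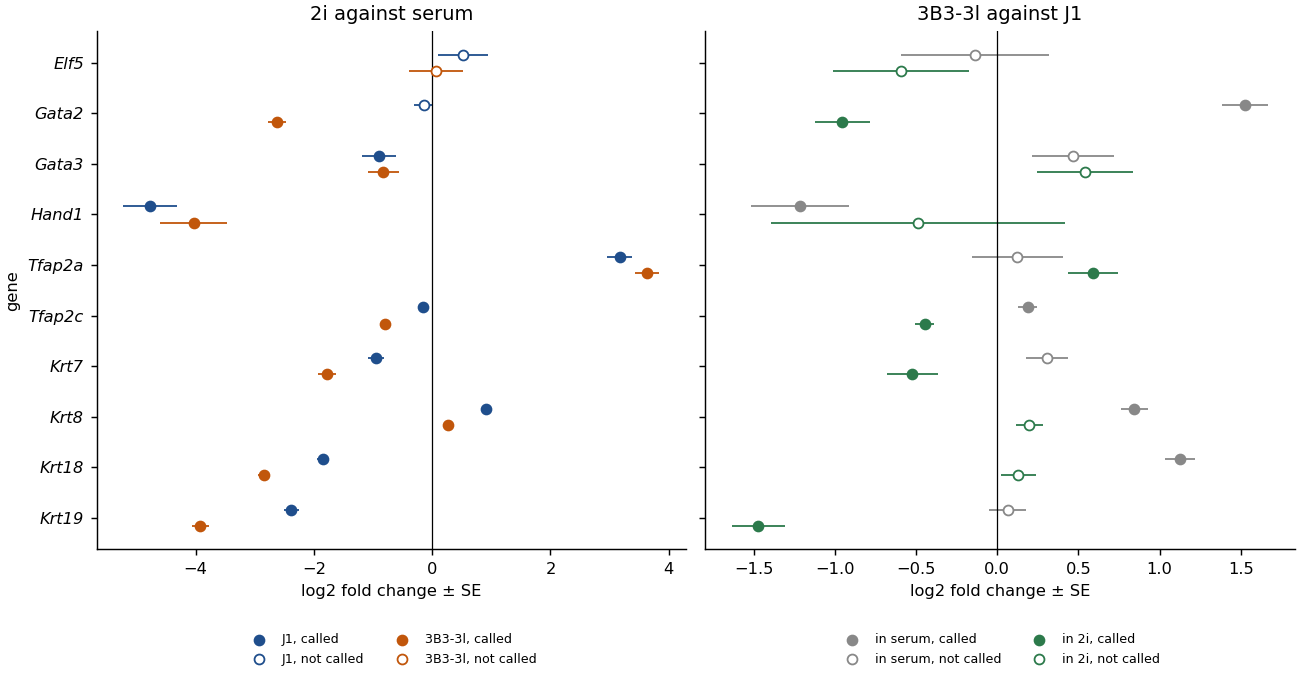
Log2 fold changes with standard errors for the 10 genes, 2i against serum in each line (left) and 3B3-3l against J1 in each medium (right); filled points are called at an adjusted p under 0.05 and open points are not. Gata2 is called lower in 2i in 3B3-3l and not in J1, and Krt8 is the one keratin above 0 on the left.

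Krt8, the type II chain of the first embryonic keratin pair, rose in 2i while its type I partners Krt18 and Krt19 fell. Krt8 (ENSMUSG00000049382, chr15:101996711-102004342) had CPM values of 59.9, 57.3 and 63.9 in J1 serum, 113, 101 and 126 in J1 2i, 123, 101 and 101 in 3B3-3l serum and 126, 134 and 129 in 3B3-3l 2i (positions here and for the other genes are on GRCm38). The J1 serum libraries lay below all others, and the other 3 groups lay close together. The log2 fold change in 2i was 0.90 ± 0.08 (edgeR adjusted p = 1.02e-07) in J1, a 1.87-fold rise, and 0.26 ± 0.08 (edgeR adjusted p = 0.0114) in 3B3-3l. The 3B3-3l call was lost without 3B3-3l serum 2, 3B3-3l serum 3 or 3B3-3l 2i 2, with an edgeR adjusted p of 0.0527 to 0.0681. In a fit over all transcripts, Krt8-201, the only Krt8 transcript, was not called in 3B3-3l 2i, at 0.20 ± 0.09 (edgeR adjusted p = 0.156).

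Krt18 (ENSMUSG00000023043, chr15:102028216-102032026) is the gene next to Krt8 and encodes its usual partner. It had CPM values of 38.4, 37.6 and 43.1 in J1 serum, 12.1, 9.16 and 11.9 in J1 2i, 96.3, 86.1 and 77.6 in 3B3-3l serum and 11.7, 12.9 and 11.6 in 3B3-3l 2i. The 6 serum libraries were all above the 6 in 2i, and 3B3-3l serum stood above J1 serum without overlap, while the 2i groups overlapped. Krt18 changed by -1.85 ± 0.10 (edgeR adjusted p = 2.04e-10) in J1, 3.59-fold lower in 2i, and by -2.84 ± 0.10 (edgeR adjusted p = 8.53e-13) in 3B3-3l, 7.18-fold lower.

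Krt19 (ENSMUSG00000020911, chr11:100140810-100145926), the smallest keratin, is a type I chain that can pair with either type II chain. It had CPM values of 37.3, 34.3 and 43.6 in J1 serum, 5.79, 7.64 and 8.63 in J1 2i, 43.5, 38.9 and 37.98 in 3B3-3l serum and 2.43, 2.32 and 3.22 in 3B3-3l 2i. The serum libraries of the lines overlapped, and in 2i every 3B3-3l library was below every J1 library. The log2 fold change was -2.39 ± 0.13 (edgeR adjusted p = 1.31e-10) in J1 and -3.92 ± 0.15 (edgeR adjusted p = 1.41e-12) in 3B3-3l, so that Krt19 was 5.23-fold and 15.2-fold lower in 2i.

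Krt7 (ENSMUSG00000023039, chr15:101412403-101427806), the type II chain of trophoblast and ductal epithelia, was much rarer. It had CPM values of 4.32, 3.35 and 3.77 in J1 serum, 2.26, 1.77 and 1.88 in J1 2i, 5.25, 4.66 and 4.22 in 3B3-3l serum and 1.23, 1.39 and 1.496 in 3B3-3l 2i. As for Krt19, the serum groups overlapped between lines and the 2i groups did not. Krt7 fell in 2i by 0.95 ± 0.14 on the log2 scale in J1 (edgeR adjusted p = 1.85e-05) and its change was -1.78 ± 0.15 (edgeR adjusted p = 2.08e-08) in 3B3-3l. Its transcripts share 151 to 181 bases at 90% identity or more with those of 11 other genes, and 53.6% ± 7.67 of its level in J1 serum was assigned to Krt7-002, a transcript that keeps an intron (share per length, SD, n = 3), so its counts are less certain than those of the other keratins.

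The balance of the pair therefore shifted. Per length, Krt8 and Krt18 were close to equal in serum, at Krt8 to Krt18 ratios of 1.17, 1.15 and 1.12 in J1 and 0.962, 0.879 and 0.979 in 3B3-3l. In 2i the ratios were 7.02, 8.28 and 7.92 in J1 and 8.07, 7.84 and 8.41 in 3B3-3l. No 2i library came near a serum library. The log2 ratio rose by 2.75 in J1 and 3.11 in 3B3-3l, where the SD within groups was 0.09 and 0.07. In both lines the exact two-sided permutation p was 0.1, the smallest that 3 libraries against 3 can give, and 0.114 after Benjamini-Hochberg adjustment over 8 ratio comparisons.

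Counting all 4 member chains gave the same direction. The ratio of type II (Krt7 and Krt8) to type I (Krt18 and Krt19) levels was 0.570 ± 0.0329 in J1 serum and 4.37 ± 0.0880 in J1 2i, and 0.636 ± 0.0272 and 6.57 ± 0.126 in 3B3-3l (SD, n = 3, exact permutation p = 0.1 in each line). Among these 4 chains, type I was thus the more abundant type in serum and the rarer one in 2i. Other type I keratins were not counted. One of them, Krt42, averaged 48.5 ± 8.16 CPM in J1 2i and 23.3 ± 0.960 CPM in 3B3-3l 2i (SD, n = 3), above Krt18 and Krt19. The ratio of all type II to all type I keratins was therefore not measured. In 2i the 3B3-3l ratio exceeded the J1 ratio by 0.59 on the log2 scale, with a within-group SD of 0.03 (exact permutation p = 0.1), while the Krt8 to Krt18 ratio differed by 0.07 (exact permutation p = 0.5, n = 3). RNA was measured, not protein.

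**Figure D3:**
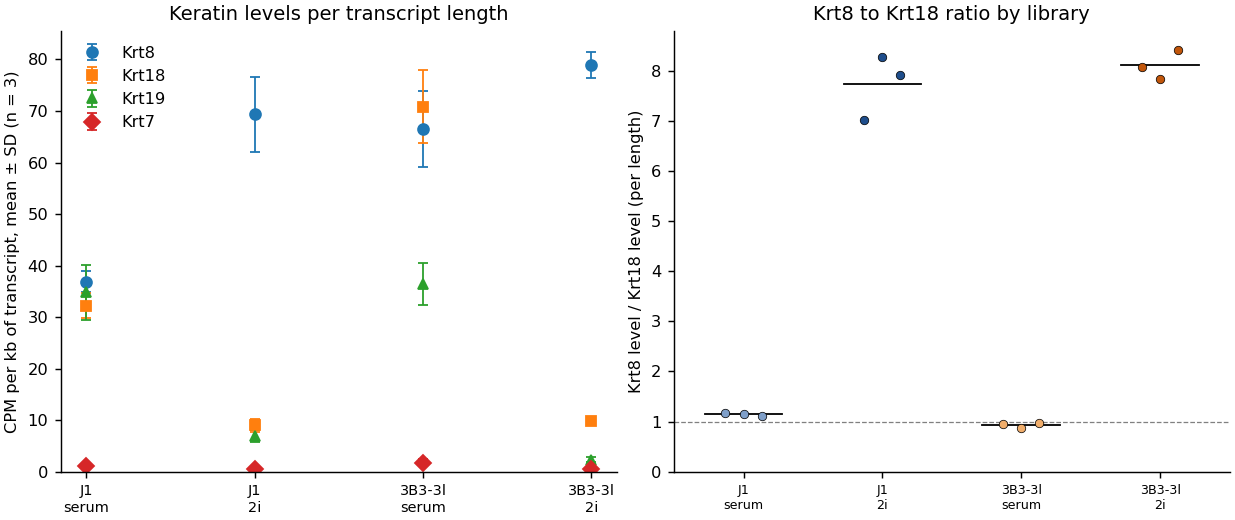
Left, levels of the 4 keratins in CPM per kb of transcript (mean ± SD, n = 3) in the 4 groups; right, the Krt8 to Krt18 ratio of these levels in each library (points) with the mean (bar) and a dashed line at 1. Serum libraries lie near 1 and all 2i libraries above 7.

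Among the factors, Tfap2a, an AP-2 factor of ectoderm and trophectoderm, was the one that rose in 2i. Tfap2a (ENSMUSG00000021359, chr13:40713802-40738238) had CPM values of 1.29, 0.723 and 0.677 in J1 serum, 9.02, 7.78 and 7.68 in J1 2i, 1.38, 0.597 and 1.004 in 3B3-3l serum and 13.3, 11.5 and 12.1 in 3B3-3l 2i. Serum libraries never exceeded 1.38 CPM and 2i libraries never fell under 7.68 CPM. The change was 3.17 ± 0.21 (edgeR adjusted p = 1.68e-09) in J1, 9.002-fold higher, and 3.64 ± 0.20 (edgeR adjusted p = 1.74e-10) in 3B3-3l, 12.4-fold higher. Both quantified transcripts contributed, whose names keep the older gene symbol. Tcfap2a-201 was listed at 0 reads in all 6 serum libraries and at 43.5, 66.7 and 13.6 estimated reads in J1 2i and 116, 82.5 and 99.5 in 3B3-3l 2i, at least 12.7-fold and 31.9-fold higher when each serum library is set to 3 reads. Tcfap2a-203, which held all serum reads, rose by 2.94 ± 0.32 (edgeR adjusted p = 6.6e-05) and 3.25 ± 0.33 (edgeR adjusted p = 3.12e-05) in a fit over all transcripts, in which 30.1% and 29.6% of transcripts were called.

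Hand1, a bHLH factor needed for trophoblast giant cells, was nearly lost in 2i. Hand1 (ENSMUSG00000037335, chr11:57828713-57832147) had 52, 59 and 51 reads in J1 serum, 22, 31 and 16 in 3B3-3l serum, 5, 1 and 0 in J1 2i and 1, 2 and 1 in 3B3-3l 2i. That is 1.24, 1.42 and 1.38 CPM in J1 serum and 0.574, 0.741 and 0.412 CPM in 3B3-3l serum, and in 2i 5 of the 6 libraries were under the 3-read floor. The log2 fold change was -4.77 ± 0.46 (edgeR adjusted p = 1.53e-07) in J1 and -4.04 ± 0.56 (edgeR adjusted p = 9.53e-06) in 3B3-3l. With so few reads in 2i the size of these fitted changes is uncertain, and a difference between the lines in 2i was not detectable at this depth.

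Gata2, a zinc-finger factor of giant cells and blood progenitors, fell in 2i in 3B3-3l and was not called in J1. Gata2 (ENSMUSG00000015053, chr6:88193891-88207032) had CPM values of 3.13, 3.21 and 3.93 in J1 serum, 2.96, 3.21 and 3.07 in J1 2i, 10.9, 11.1 and 7.47 in 3B3-3l serum and 1.66, 1.46 and 1.65 in 3B3-3l 2i. In J1 the serum and 2i libraries overlapped, and in 3B3-3l the 2i libraries were all below the serum libraries, with 3B3-3l 2i the lowest group and 3B3-3l serum the highest. The change in 2i was -0.15 ± 0.15 (edgeR adjusted p = 0.417) in J1, with a 95% interval of -0.45 to 0.15, and -2.63 ± 0.16 (edgeR adjusted p = 3.83e-10) in 3B3-3l, 6.18-fold lower. All reads were on Gata2-201, which begins at the downstream start printed above, except for 35.8 estimated reads on the upstream start in 3B3-3l serum 3.

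Tfap2c, the AP-2 factor that acts in trophoblast stem cells, mESCs and germ cells, was the most abundant of the 6 factors. Tfap2c (ENSMUSG00000028640, chr2:172545678-172558622) had CPM values of 57.3, 60.02 and 58.8 in J1 serum, 53.9, 52.1 and 51.7 in J1 2i, 69.5, 70.4 and 60.7 in 3B3-3l serum and 39.5, 36.95 and 39.3 in 3B3-3l 2i. The 4 groups were separate from each other, though J1 serum and J1 2i lay close. Tfap2c fell in 2i by 0.16 ± 0.06 on the log2 scale in J1 (edgeR adjusted p = 0.0236). It missed the threshold without J1 serum 2, J1 serum 3, J1 2i 2 or J1 2i 3 (edgeR adjusted p from 0.0545 to 0.0745). In 3B3-3l it fell by 0.79 ± 0.06 (edgeR adjusted p = 5.6e-09).

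The transcripts of Tfap2c did not move together. Tcfap2c-001 held 60.2% ± 1.17 of the gene's per-length level in J1 serum and 46.7% ± 5.28 in J1 2i, 51.9% ± 10.9 in 3B3-3l serum and 25.5% ± 3.46 in 3B3-3l 2i (SD, n = 3). Tcfap2c-201 held 14.5% ± 5.09 and 28.2% ± 1.82 in J1 serum and 2i, against 21.5% ± 8.01 and 51.9% ± 4.33 in 3B3-3l. In each line the shares of either transcript did not overlap between the media, nor between the lines in 2i (exact permutation p = 0.1 for each, the smallest possible with n = 3, and 0.308 adjusted over 37 comparisons). Tested on its own reads, Tcfap2c-001 changed by -0.61 ± 0.15 (edgeR adjusted p = 0.0108) in J1 2i and -1.93 ± 0.15 (edgeR adjusted p = 6.1e-06) in 3B3-3l 2i, while Tcfap2c-201 changed by 0.73 ± 0.29 (edgeR adjusted p = 0.0922) and 0.39 ± 0.29 (edgeR adjusted p = 0.377), neither past the threshold. The rarer Tcfap2c-004 was called higher in J1 2i, at 1.04 ± 0.31 (edgeR adjusted p = 0.03). In 3B3-3l 2i it was not called, at -0.34 ± 0.31 (edgeR adjusted p = 0.477). Tcfap2c-002, Tcfap2c-003 and Tcfap2c-005 were not called for 2i in either line. Between the lines Tcfap2c-001 differed by -0.03 ± 0.15 (edgeR adjusted p = 0.942) in serum and -1.35 ± 0.15 (edgeR adjusted p = 0.000257) in 2i, where 10.1% and 14.2% of transcripts were called. The 2i effect on Tcfap2c-001 differed between lines by -1.32 ± 0.21 (edgeR adjusted p = 0.00434), where 8.36% of transcripts were called. The split of reads among transcripts is an estimate of the authors' quantification.

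Gata3, a trophectoderm and T-cell factor, was close to the limit of detection. Gata3 (ENSMUSG00000015619, chr2:9857078-9887953) had 30, 24 and 25 reads in J1 serum, 12, 16 and 17 in J1 2i, 34, 32 and 42 in 3B3-3l serum and 26, 14 and 23 in 3B3-3l 2i. In CPM it changed by -0.90 ± 0.29 (edgeR adjusted p = 0.0118) in J1 2i and by -0.83 ± 0.26 (edgeR adjusted p = 0.0112) in 3B3-3l 2i. Both depend on single libraries and on the scaling. The J1 call was lost without J1 2i 1 (edgeR adjusted p = 0.0547), the 3B3-3l call without 3B3-3l serum 3 or 3B3-3l 2i 2 (edgeR adjusted p = 0.0576 and 0.0557), and with offsets for transcript length the log2 fold changes turned to 0.39 ± 0.43 (edgeR adjusted p = 0.446) and 0.51 ± 0.39 (edgeR adjusted p = 0.281).

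The 2 transcripts with most Gata3 reads differed. Gata3-001, the full-length coding transcript, had 21, 18.7 and 21 estimated reads in J1 serum and 5.10, 9.30 and 5.10 in J1 2i, 28.1, 26.2 and 32.3 in 3B3-3l serum and 9.10, 6 and 8 in 3B3-3l 2i. It changed by -1.83 ± 0.34 (edgeR adjusted p = 0.00226) in J1 2i and by -2.002 ± 0.34 (edgeR adjusted p = 0.00119) in 3B3-3l 2i. The short non-coding transcript Gata3-006 had 8, 2.40 and 4 estimated reads in J1 serum, 7, 7 and 11.7 in J1 2i, 6, 5.50 and 10 in 3B3-3l serum and 16.9, 8 and 15 in 3B3-3l 2i, with changes of 0.74 ± 0.59 (edgeR adjusted p = 0.403) and 0.74 ± 0.58 (edgeR adjusted p = 0.397). So the coding transcript was lower in 2i in every library of both lines, and the short one was not called in either direction.

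**Figure D4:**
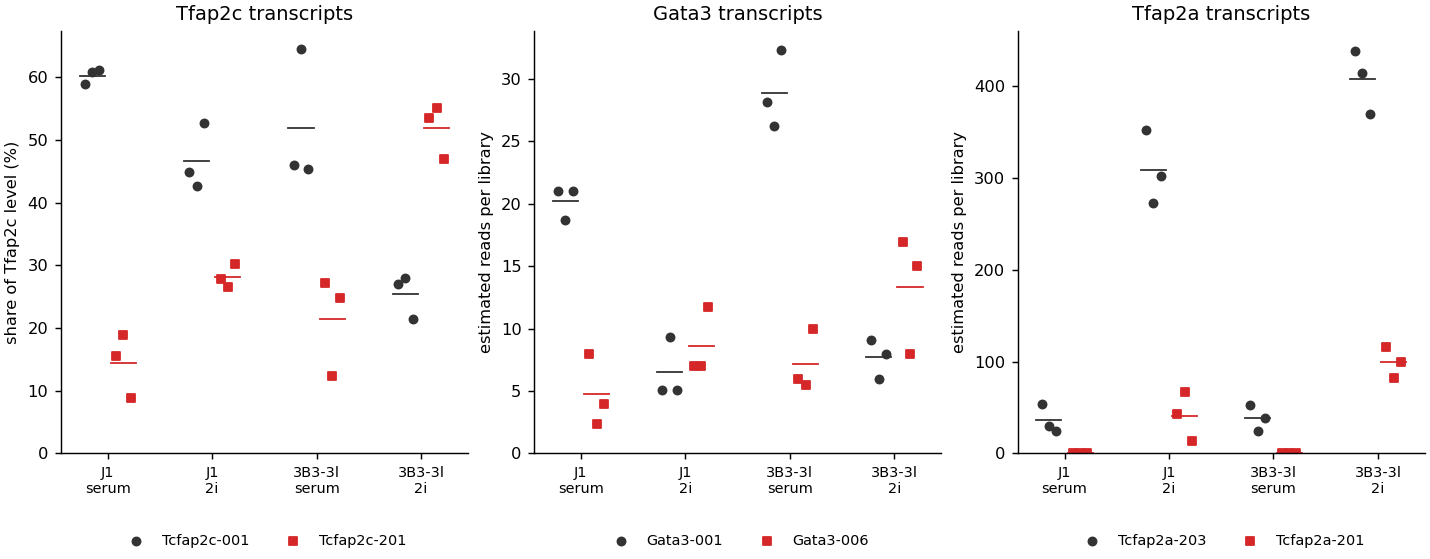
Transcripts of 3 of the factors in the 12 libraries (points) with group means (bars): share of the per-length Tfap2c level in percent (left), and estimated reads per library of Gata3 (middle) and Tfap2a (right) transcripts. The Tcfap2c-201 share is highest in 3B3-3l 2i, Gata3-001 falls from above 18 reads to below 10 in 2i, and Tcfap2a-201 is at 0 in all serum libraries.

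Elf5, the trophoblast gate, was not called in any comparison. Elf5 (ENSMUSG00000027186, chr2:103412098-103450989) had CPM values of 0.430, 0.265 and 0.190 in J1 serum, 0.410, 0.413 and 0.463 in J1 2i, 0.418, 0.119 and 0.283 in 3B3-3l serum and 0.433, 0.255 and 0.155 in 3B3-3l 2i. These are 18, 11 and 7 reads in J1 serum and 18, 11 and 6 in 3B3-3l 2i, and every group overlapped every other. The log2 fold change in 2i was 0.52 ± 0.42 (edgeR adjusted p = 0.287) in J1, with a 95% interval of -0.30 to 1.34, and 0.06 ± 0.46 (edgeR adjusted p = 0.914) in 3B3-3l, with an interval of -0.83 to 0.96. The reads were spread over 7 transcripts, 24.98 of those in J1 2i on Elf5-002, which keeps an intron. Elf5 transcripts share stretches of 151 to 200 bases at 90% identity or more with 24 other genes, so part of these few reads may belong elsewhere.

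The lines were then compared within each medium. In serum, 5 members were called, 4 higher in 3B3-3l and 1 lower, where 38.7% of all tested genes were called (21.5% higher, 17.2% lower). The CPM ranges of the lines were apart for 6 members, as for 50.9% of tested genes. Gata2 was 2.88-fold, Krt18 2.18-fold and Krt8 1.79-fold higher in 3B3-3l, at 1.53 ± 0.14 (edgeR adjusted p = 7.67e-07), 1.13 ± 0.09 (edgeR adjusted p = 2.39e-07) and 0.84 ± 0.08 (edgeR adjusted p = 1.45e-06). Both chains of the Krt8 and Krt18 pair were thus higher together. Hand1 was 2.33-fold lower, at -1.22 ± 0.30 (edgeR adjusted p = 0.00473). Tfap2c differed by 0.19 ± 0.06 (edgeR adjusted p = 0.017), and no longer passed without J1 serum 1, 3B3-3l serum 1 or 3B3-3l serum 2 (edgeR adjusted p from 0.061 to 0.0928). Krt7 missed the threshold at 0.30 ± 0.13 (edgeR adjusted p = 0.0758) and passed it without J1 serum 1 (edgeR adjusted p = 0.0437), and Krt19, Elf5, Gata3 and Tfap2a were not called, the first with a 95% interval of -0.16 to 0.28.

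Markers of primitive endoderm, an epithelium that also makes Krt8, Krt18 and Krt19, were mostly higher in 3B3-3l serum, as were Krt8 and Krt18. Krt19 was not called there, at 0.06 ± 0.11 (edgeR adjusted p = 0.692). Of the 12 tested of 14 primitive endoderm markers, 9 were higher in 3B3-3l serum than in J1 serum and 1 was lower. Over all tested genes, 21.5% were higher and 17.2% lower. Among markers with at least 1 CPM in either group, the largest differences were those of Sox7 (1.67 ± 0.28), Gata6 (1.56 ± 0.31) and Cubn (1.07 ± 0.22). Sox17, rarer at 0.522 ± 0.0459 CPM in 3B3-3l serum (SD, n = 3), differed by 1.95 ± 0.34. The summed level of the list was 482 to 516 CPM in J1 serum and 549 to 552 CPM in 3B3-3l serum, and 485 to 492 and 418 to 429 CPM in 2i. In J1 2i 4 of the markers rose and 6 fell, and in 3B3-3l 2i 1 rose and 9 fell. Over all tested genes, 33.2% rose and 32.9% fell in J1 2i, and 32.7% and 32.7% in 3B3-3l 2i. Ttr was at 0 and Afp at or below 3 reads in all 12 libraries, and Gata6 averaged 1.06 ± 0.0638 CPM in 3B3-3l serum (SD, n = 3). Their part in the keratin levels was not tested.

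In 2i, 5 members were called between the lines, 1 higher in 3B3-3l and 4 lower, against 45.9% of all tested genes (23% and 22.9%). The ranges were apart for 6 members and for 52.6% of tested genes. Tfap2a was 1.51-fold higher in 3B3-3l, at 0.59 ± 0.15 (edgeR adjusted p = 0.00496). Krt19 was 2.77-fold lower, at -1.47 ± 0.16 (edgeR adjusted p = 2.47e-06), Gata2 1.94-fold lower, at -0.96 ± 0.17 (edgeR adjusted p = 0.00024), and Tfap2c 1.36-fold lower, at -0.45 ± 0.06 (edgeR adjusted p = 1.4e-05). Krt7 differed by -0.52 ± 0.16 (edgeR adjusted p = 0.0128), and no longer passed without J1 2i 1 or 3B3-3l 2i 1 (edgeR adjusted p = 0.0669 and 0.0566) and with transcript length offsets (0.512). Krt8 differed by 0.20 ± 0.08 (edgeR adjusted p = 0.0602), and passed the threshold without J1 2i 3 (edgeR adjusted p = 0.0107) or with no filter on low counts (0.0342). Krt18 differed by 0.13, with a 95% interval of -0.08 to 0.34, and Elf5, Gata3 and Hand1 were not called. The Gata3 difference of 0.54 ± 0.30 (edgeR adjusted p = 0.154) passed without 3B3-3l 2i 2 (edgeR adjusted p = 0.0448).

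Whether the response to 2i differed between the lines was tested as an interaction. It was called for 6 of the 10 members, where 34.7% of all tested genes were called, and all 6 were lower in 3B3-3l (18.3% of tested genes). All 4 keratins were among them: the 2i effect in 3B3-3l minus that in J1 was -1.54 ± 0.20 (edgeR adjusted p = 2.8e-05) for Krt19, -0.998 ± 0.14 (edgeR adjusted p = 7.15e-05) for Krt18, -0.83 ± 0.20 (edgeR adjusted p = 0.00533) for Krt7 and -0.65 ± 0.12 (edgeR adjusted p = 0.000548) for Krt8. For Krt8 this is a smaller rise and for the other 3 a deeper fall. For Krt18 the 2i levels of the lines overlapped and the serum levels did not, whereas for Krt19 and Krt7 the serum levels overlapped and the 2i levels did not. Gata2 had the largest value of the 10, at -2.48 ± 0.22 (edgeR adjusted p = 7.03e-07), and Tfap2c differed by -0.63 ± 0.08 (edgeR adjusted p = 2.81e-05). The Krt7 call was lost with transcript length offsets (edgeR adjusted p = 0.162). The test was not passed by Tfap2a, at 0.47 ± 0.32 (edgeR adjusted p = 0.284), Hand1, at 0.73 ± 1.10 (edgeR adjusted p = 0.647), Gata3, at 0.07 ± 0.38 (edgeR adjusted p = 0.902), and Elf5, at -0.45 ± 0.62 (edgeR adjusted p = 0.611).

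Other trophoblast genes moved in both directions in 2i. Of a list of 20 that holds none of the members, 15 were tested, of which 5 rose and 8 fell in J1 2i and 5 rose and 8 fell in 3B3-3l 2i. Their median log2 fold change was -0.98 and -0.72. As a background for this list and those below, 33.2% of all tested genes rose and 32.9% fell in J1 2i. In 3B3-3l 2i the shares were 32.7% and 32.7%. The stem-cell factors Eomes, Tead4 and Cdx2 rose in J1, by 3.30 ± 0.08, 1.96 ± 0.05 and 1.90 ± 0.28. They also rose in 3B3-3l, by 2.39 ± 0.08, 1.29 ± 0.05 and 1.34 ± 0.30. Eomes averaged 2.86 ± 0.142 CPM in J1 serum, 3.55 ± 0.0324 in 3B3-3l serum, 28.1 ± 2.45 in J1 2i and 18.6 ± 0.555 in 3B3-3l 2i (SD, n = 3). Fgfr2, the receptor through which trophoblast stem cells are maintained, changed by -6.66 ± 0.18 in J1 and -5.82 ± 0.21 in 3B3-3l. The ectoplacental factor Ascl2 (-1.67 ± 0.15 and -3.37 ± 0.16) and the placental homeobox factor Dlx3 (-1.86 ± 0.22 and -2.37 ± 0.23) were lower in both lines. The genes of differentiated placenta Tpbpa, Prl3d1 and Prl2c2 were at 0 in all 12 libraries and Hsd3b6 at or below 3 reads.

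Between the lines, 6 of these genes were higher and 2 lower in 3B3-3l serum, and 1 higher and 6 lower in 3B3-3l 2i. Over all tested genes the shares were 21.5% and 17.2% in serum and 23% and 22.9% in 2i. Ascl2 differed by 1.04 ± 0.13 in serum and -0.66 ± 0.19 in 2i. Plet1, a marker of early trophoblast, was higher in 3B3-3l in both media, at 0.67 ± 0.10 and 0.56 ± 0.09. The placental homeobox genes Rhox6 and Rhox9 were lower in 3B3-3l 2i, at -1.27 ± 0.18 and -1.18 ± 0.21. The interaction was called for 7 of the 15, all lower in 3B3-3l, led by Ascl2 (-1.70 ± 0.23). Over all tested genes, 34.7% were called, 18.3% lower and 16.3% higher.

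Paralogs of the factors served as a further comparison. Of 10 listed, 6 were tested, and 2 rose and 2 fell in 2i in each line. Elf3, an epithelial ETS factor related to Elf5, was abundant. Its mean was 50.05 ± 4.89 CPM without and 123 ± 7.79 CPM with 2i in J1 (SD, n = 3), and it rose by 1.29 ± 0.07 and, in 3B3-3l, by 1.38 ± 0.07. Gata6, a primitive endoderm factor, fell in 3B3-3l 2i (-3.09 ± 0.38) and Gata1, a blood factor, in J1 2i (-1.38 ± 0.26). The AP-2 paralog Tfap2d was at or below 3 reads in every library, and Tfap2b averaged at most 0.0794 CPM in any group. Tfap2e, a further AP-2 paralog, never exceeded 0.840 CPM and was called lower in 2i in both lines. It changed by -2.89 ± 0.45 (edgeR adjusted p = 3.82e-05) in J1 and -1.93 ± 0.46 (edgeR adjusted p = 0.00168) in 3B3-3l.

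Few other keratins were abundant. Of 45 other keratin genes in the table, 17 never exceeded 3 reads in any library and 15 were tested, of which 4 rose and 8 fell in J1 2i and 4 rose and 7 fell in 3B3-3l 2i. Only Krt17 and Krt42, type I chains, averaged above 10 CPM in a group. Krt17 averaged 31.4 ± 0.287 CPM in J1 serum, 14.4 ± 2.12 in J1 2i, 9.14 ± 1.45 in 3B3-3l serum and 2.77 ± 0.348 in 3B3-3l 2i (SD, n = 3). Unlike Krt18, it was lower in 3B3-3l in both media, at -1.78 ± 0.11 and -2.37 ± 0.13, as was Krt42, at -1.22 ± 0.11 and -1.06 ± 0.10. Krt16 and Krt13, further type I chains, rose in J1 2i by 2.28 ± 0.18 and 1.71 ± 0.28, so the fall of Krt18 and Krt19 was not shared by every type I keratin. Krt16, Krt17 and Krt42 are close relatives, and how reads were divided among them was not examined.

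Keratin filaments are anchored at desmosomes, so junction and other epithelial genes were listed as well. All 18 were tested, and 5 rose and 11 fell in J1 2i, 4 rose and 14 fell in 3B3-3l 2i. The median log2 fold change was -0.45 and -1.04. The epithelial splicing factor Esrp1 changed by -4.93 ± 0.07 and -4.87 ± 0.07, and the early tight-junction protein Cldn6 by -3.85 ± 0.09 and -4.23 ± 0.09. The desmosomal cadherin Dsg2 rose in both lines (1.62 ± 0.07 and 1.25 ± 0.06). Dsp, which ties keratins to desmosomes, was higher in 3B3-3l serum than in J1 serum (0.98 ± 0.07), rose in J1 2i (0.73 ± 0.07) and fell in 3B3-3l 2i (-0.20 ± 0.07), with an interaction of -0.93 ± 0.10. Krt8, by contrast, was called higher in 2i in both lines, though its call in 3B3-3l depended on single libraries. The interaction was called for 13 of the 18, 10 lower in 3B3-3l and 3 higher, against 34.7% of all tested genes (18.3% lower, 16.3% higher).

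**Figure D5:**
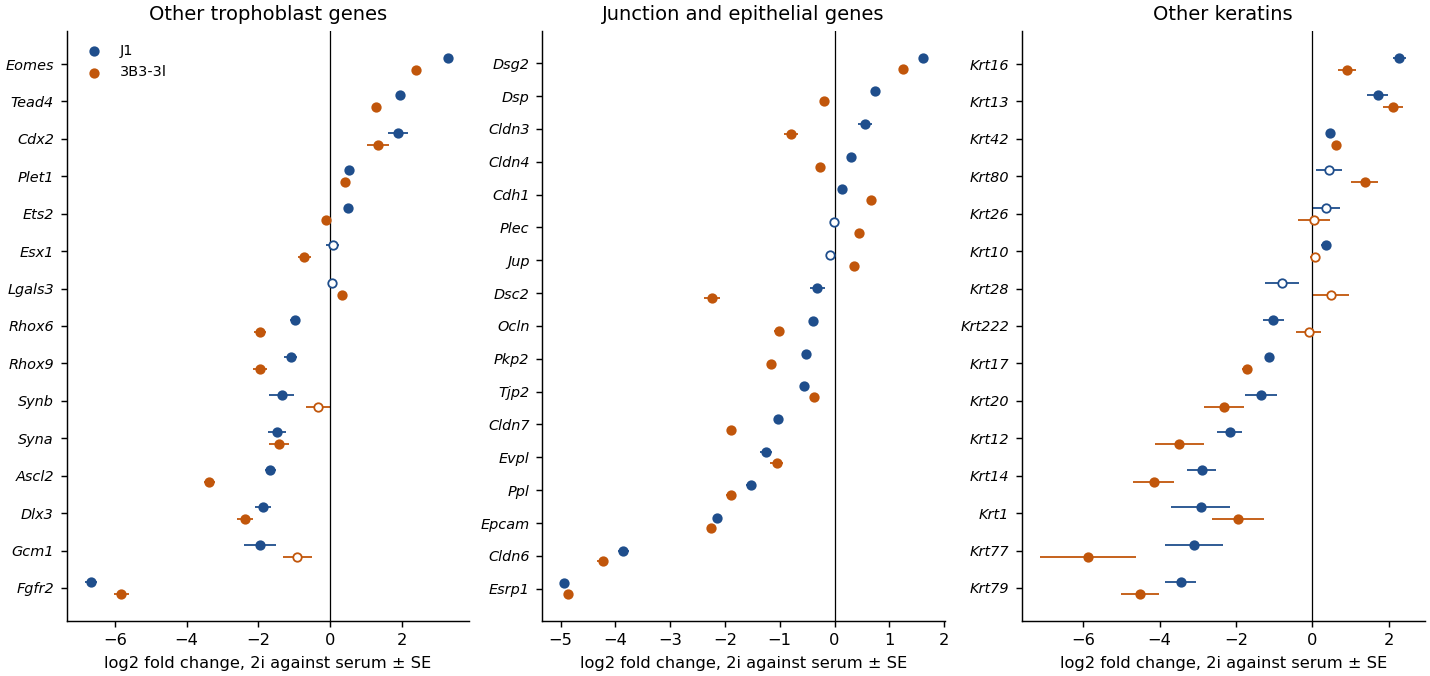
Log2 fold changes with standard errors, 2i against serum in J1 and 3B3-3l, for tested genes of the trophoblast list, the junction and epithelial list (1 gene not shown) and the other keratins; filled points are called at an adjusted p under 0.05 and open points are not. Each list has genes on both sides of 0, in J1 from Fgfr2 to Eomes, Esrp1 to Dsg2 and Krt79 to Krt16.

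Since Tfap2c is also a germ-cell factor and Hand1 a mesoderm factor, markers of those lineages are given beside them. Of 7 germ-cell markers, 3 rose and 4 fell in J1 2i, and 3 and 4 in 3B3-3l 2i, and their summed CPM in J1 was 163 to 173 in serum and 311 to 338 in 2i. Most of the sum in 2i was Kit, which averaged 59.5 ± 3.98 CPM in J1 serum and 281 ± 14.2 with 2i (SD, n = 3), while Dppa3 averaged 38.98 ± 2.26 and 8.19 ± 0.287. Of 7 tested mesoderm markers, 2 rose and 1 fell in J1 2i and 5 and 1 in 3B3-3l 2i. Unlike Hand1, T rose in both lines, by 4.09 ± 0.18 in J1 and 2.61 ± 0.17 in 3B3-3l. The mesoderm markers summed to 25.8 to 27.7 CPM in J1 serum and 34.4 to 37.9 in J1 2i. In 3B3-3l the sums were 18.5 to 21.2 CPM in serum and 40.6 to 45.4 in 2i. The part of either list in the levels of Tfap2c and Hand1 was not tested.

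Over the 12 libraries, the members did not follow 1 pattern. Pearson's r of log2 CPM was 0.88 between Krt18 and Krt19 and 0.97 between Krt7 and Krt19, but -0.39 between the partners Krt8 and Krt18, and -0.84 between Tfap2a and Tfap2c. Among genes of at least 5 CPM in some group, the closest to Krt8 were Bahd1 (r = 0.980), Rps6ka4 (r = 0.978) and Kcp (r = 0.977), and those to Krt18 Foxi3 (r = 0.995), Rab34 (r = 0.994) and Card10 (r = 0.993). For Krt19 they were Nt5dc2 (r = 0.996), Ier3 (r = 0.995) and Flnc (r = 0.994), and the 3 closest to Krt7 included Marveld1 (r = 0.993) and Sox12 (r = 0.989). The genes most like Gata2 were Phf10 (r = 0.972), Ssh3 (r = 0.967) and Bst2 (r = 0.964), and those most like Tfap2a were Hal (r = 0.992), Adam15 (r = 0.991) and Tbx15 (r = 0.989). Hand1 was nearest to Cnksr1 (r = 0.988), Depdc1b (r = 0.986) and Creb3l1 (r = 0.984). The 3 nearest to Tfap2c included Pstpip2 (r = 0.981), and the 3 nearest to Gata3 included Jade3 (r = 0.941) and Ube2g1 (r = 0.936). For Elf5 the values were lower, the highest being Stk11ip (r = 0.801), Josd2 (r = 0.781) and Lrrn4cl (r = 0.742). These are descriptions over 12 libraries of 4 groups, which all correlations share.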

How the data were processed

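Poly(A) RNA of 12 libraries, 3 per group, was sequenced by the authors in stranded libraries. Estimated count values per gene were deposited by the authors, who made them by quantifying transcripts with Sailfish 0.9.2 and summing them to genes. The deposited transcript tables also hold TPM values, which were used to compute shares per length. How reads shared by near-identical copies were split is set by that quantification. The methods name RefSeq gene models, while the identifiers are Ensembl ones. Libraries held 37050652 to 44515395 estimated reads, and a 3-read floor covers counting error only.

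Counts were rounded and tested in edgeR 4.0.16 (filterByExpr, TMM, 1 coefficient per group, quasi-likelihood test, R 4.3.3). P-values were adjusted by Benjamini and Hochberg over 17885 genes, and genes were called at an adjusted p under 0.05. The procedure was tested on simulated data. Fold changes have standard errors, levels have SDs. Ratios and transcript shares were compared by exact two-sided permutation tests. The labels call the replicates biological, with no further detail, so p-values measure the spread between these libraries. The study sequenced its libraries in 2 pools, and the pool of each library is not given in the sources used here. DESeq2 1.42.0, other filters, length offsets, a 2-fold threshold and leaving out libraries were alternatives.

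Members and gene lists were chosen with earlier results of these data known. From each list and comparison, at most the 3 highest and 3 lowest called genes with at least 1 CPM were named. Genes named for lying at or under 3 reads, Tfap2b, Tfap2e, Krt79, Dcn, Postn and Sox17 were chosen after their values were seen. So were the transcript fit and the search for near-identical copies (at least 150 aligned bases at 90% identity or more). Transcript names and types come from GENCODE vM1, matched by transcript ID, and promoter windows from RefSeq. Values of a few genes that the naming rule picked are not reported here.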

Additional observations from a re-analysis of the deposited data

Results flagged for a closer look

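For 6 of the 10 genes the response to 2i differed between the lines in the interaction contrast of edgeR's quasi-likelihood fit, with the effect in 3B3-3l below that in J1. The differences were -2.48 for Gata2, -1.54 for Krt19, -0.998 for Krt18, -0.83 for Krt7, -0.65 for Krt8 and -0.63 for Tfap2c on the log2 scale. All groups hold 3 libraries, and no search for single outlying libraries was made within them.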

How the results depend on the processing

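Leaving out 1 library at a time left 7 to 8 of the 10 genes called for 2i in J1, 7 to 9 for 2i in 3B3-3l, 4 to 5 between the lines in serum, 4 to 6 between them in 2i and 6 for the difference of the 2i effects. Over all genes, 11115 to 11865, 10929 to 11446, 5534 to 6797, 7116 to 7961 and 5225 to 6857 of 18242 to 18306 were called. DESeq2's Wald test and its size factors gave the same 5 counts of members as edgeR. Over all 17885 genes, the Wald test called 11379, 11238, 6429, 7836 and 5915. With the size factors, 11838, 11650, 6864, 8177 and 6179 were called. A filter of 10 counts in every library gave 7, 8, 4, 5 and 6 members. Elf5 and Hand1 did not pass this filter and were not tested. It gave 10136, 9921, 6458, 7489 and 5864 calls over 14585 genes. With transcript length offsets the counts of members were 7, 8, 5, 4 and 5. Over all 17885 genes they were 11170, 11091, 5935, 7427 and 5257. Tested against a change of more than 2-fold, 4 genes were called for 2i in J1, 6 for 2i in 3B3-3l, 1 between the lines in serum (2 at an unadjusted p under 0.05), 0 between the lines in 2i (1 at an unadjusted p under 0.05) and 1 for the difference (2). Over all 17885 genes, 2756, 2968, 91, 420 and 304 were called at that threshold, in the same order. That threshold asks for larger changes by construction.

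The type II to type I ratio differed between the lines in 2i by 0.51 on the log2 scale when computed from gene counts, and the share of Krt7-002 by -10.96 percentage points when taken over estimated reads. The cause was not tested. With transcript length offsets, Gata3 turned from lower to higher in 2i, at 0.39 in J1 and 0.51 in 3B3-3l, and Elf5 changed sign, to -0.45 for 2i in 3B3-3l and to 0.088 between the lines in serum, none of them called. Values that were not called changed sign without single libraries: Elf5 ranged from -0.38 to 0.50 for 2i in 3B3-3l and from -0.57 to 0.24 between the lines in serum, Gata3 from -0.095 to 0.30 for the difference of the 2i effects, Hand1 from -1.02 to 1.25 between the lines in 2i, Tfap2a from -0.19 to 0.49 and Krt19 from -0.010 to 0.16 between the lines in serum.

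Same-numbered libraries did not deviate together (r from -0.118 to 0.0167 over genes), and the main fit did not pair them. Whether they were handled together cannot be read from these values. With the replicate number as a block, 8, 9, 5, 5 and 6 genes were called in the comparisons in the order above, the same counts as without it. The depth limits what can be said of Elf5, Gata3 and Hand1.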
